A study of Sus scrofa with 6 samples.

Results

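The UBE2 family of ubiquitin-conjugating enzymes was described in the stored mRNA of pig (Sus scrofa) oocytes. The members are the genes whose pig Ensembl symbol begins with UBE2 followed by a letter, and 29 of the 25880 genes counted met this rule. The 6 RNA-seq libraries came from oocytes labelled MII, the stage at which a mature egg waits for fertilisation in its second meiotic metaphase. In 3 of them (control replicates 1, 2 and 3) the oocytes were controls, and in the other 3 (malathion replicates 1, 2 and 3) they had received malathion, an organophosphate insecticide, at 1 mM in the maturation medium, diluted from a 0.75 M stock in DMSO. The oocytes of both groups were collected from slaughterhouse ovaries as cumulus-oocyte complexes. The labels give no breed or age, do not say whether the controls received DMSO, and do not say how many oocytes made up a library or whether replicates were separate cultures, so p-values measure only the spread between these libraries, which may be technical.

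Ubiquitin is a small protein that is attached to other proteins in a relay. An E1 enzyme activates ubiquitin, an E2 enzyme carries it on an active-site cysteine, and an E3 ligase brings the E2 to the substrate. The E2 often decides which kind of ubiquitin chain is built, and some E2 enzymes carry related modifiers such as SUMO, NEDD8 or ISG15 instead. In oocytes the relay is best known for the destruction of cyclin B and securin by the anaphase-promoting complex, an E3 ligase that must be held inactive at the MII arrest and switched on at fertilisation.

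The libraries held between 25816040 and 42312341 gene counts, and values below are CPM (counts scaled to these totals) unless another scale is named. CPM were not divided by transcript length, so an order of members by CPM is an order of reads drawn and not of transcript number. A level resting on 100 counts carried a Wilson 95% interval of ± 19.7% of its value, and the limit that a count of 0 allows (3 counts) lay between 0.0709 and 0.116 CPM. Both cover counting error only, because amplified reads without molecular identifiers are not independent molecules. The oocyte marker list (13 of 14 genes matched) summed to 45746 to 121843 CPM in the replicate 1 and 2 libraries, but to 6670 CPM in control replicate 3 and 4906 CPM in malathion replicate 3. In the same 2 libraries the cumulus and granulosa markers (12 of 14 matched) summed to 36.1 and 66.1 CPM, against 425 to 727 CPM in the other 4. Of that list AMH was at 0 in each library, and the defining genes PTX3 and FSHR reached at most 0.540 CPM. Markers of theca, stroma, blood and endothelium (12 of 13 matched) summed to at most 22.04 CPM, with CYP17A1 and CDH5 at 0 in each library. Not each marker followed its sum. VCAN (286 to 424 CPM) and KITLG (133 to 244 CPM) made up most of the cumulus sum in the replicate 1 and 2 libraries, and CYP11A1 reached 81.6 CPM and STAR 24.99 CPM in malathion replicate 2. Of the oocyte list, MOS (1458 CPM) and ZP2 (2158 CPM) were at their highest in malathion replicate 3, and OOEP (382 CPM) in control replicate 3. The low sums hold for CPM and not for TMM-normalised CPM, the scale of the fold changes. There the oocyte sums were 47406 and 35490 in control and malathion replicate 3, against 12810 to 54021 elsewhere. Genes detected numbered 8344 and 8492 in these 2 libraries, against 12211 to 14707 elsewhere. The replicate 3 libraries stand apart in both groups, and fold changes that rest on 1 of them are given with and without it. Fewer cells of a type and less RNA per cell cannot be told apart in such bulk libraries.

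The UBE2 family took 0.977%, 1.19% and 0.252% of the gene counts of the control libraries, in the order of their replicate numbers, and 0.862%, 1.02% and 0.332% of those of the malathion libraries. Values for 3 libraries of a group follow this order throughout. The widest Wilson 95% interval of these shares, in control replicate 2, ran from 1.188% to 1.196%. Summed over the family, the mean was 8067 ± 4927 CPM without and 7370 ± 3592 CPM with malathion (SD, 3 libraries each). The difference of −696 CPM was smaller than the SD of either group, and its sign turned without malathion replicate 3 (1329 CPM), without control replicate 2 (1229 CPM) or control replicate 1 (154 CPM), and in TMM-normalised CPM (2111). With both replicate 3 libraries left out it was −1447 CPM. In CPM both groups held high values in replicates 1 and 2 and a low value in replicate 3. In TMM-normalised CPM this order was reversed, at 17875 in control and 24013 in malathion replicate 3 against 3337 to 4092 elsewhere. At 1 CPM or more, 22, 24 and 15 members were found in the control libraries and 21, 22 and 15 after malathion.

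**Figure D1:**
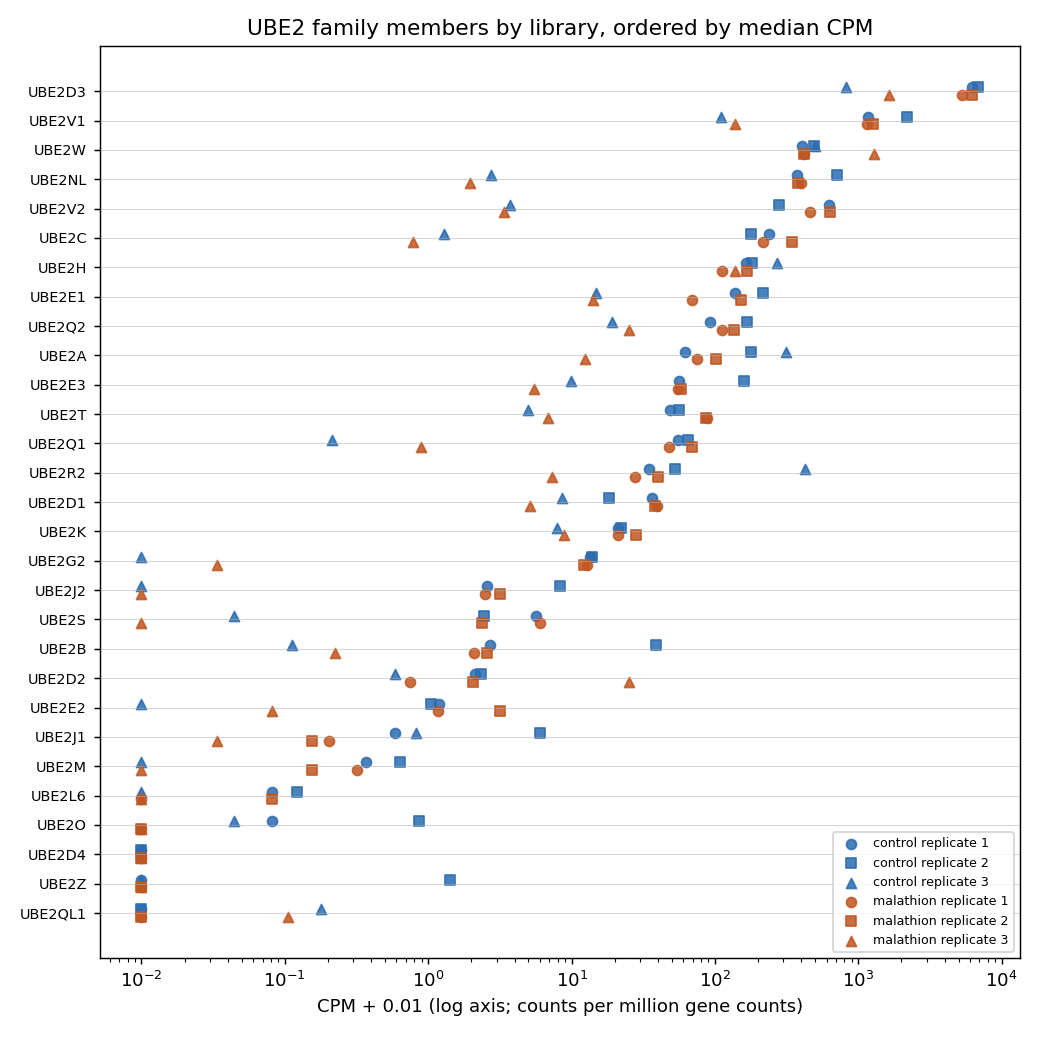
CPM plus 0.01 on a log axis for each of the 29 UBE2 members (rows, ordered by median CPM), with 1 symbol per library, blue for control and orange for malathion, and the symbol shape giving the replicate. The triangles (replicate 3) of both colours fall well to the left of the other symbols for most members, while UBE2W and UBE2H keep all 6 symbols close together.

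UBE2D3 (ENSSSCG00000035622), a broad E2 that works with many RING-type ligases, drew the most reads of the family in each of the 6 libraries. It stood at 6223, 6884 and 825 CPM in the control libraries and at 5310, 6230 and 1649 CPM in the malathion libraries. By reads drawn it was at rank 6 to 19 of all genes in the 4 replicate 1 and 2 libraries and at rank 216 and 120 in control and malathion replicate 3. UBE2D3 alone held 57.8% to 63.7% of the UBE2 counts in the replicate 1 and 2 libraries, 32.8% in control replicate 3 and 49.7% in malathion replicate 3. The groups overlapped, and the log2 fold change on TMM-normalised counts, malathion minus control, was 0.68 ± 2.44 (SE, edgeR, 95% interval −4.55 to 5.90), or −0.08 on library totals alone and −0.54 without malathion replicate 3.

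The closest relatives of UBE2D3 were far less covered. UBE2D1 (ENSSSCG00000033323), which can also serve the anaphase-promoting complex, stood at 36.2, 18.2 and 8.62 CPM in the control and 39.3, 38.1 and 5.08 CPM in the malathion libraries. UBE2D2 (ENSSSCG00000036711) stood at 2.12, 2.32 and 0.577 CPM in the control libraries and at 0.736, 2.05 and 25.1 CPM in the malathion libraries, so that only malathion replicate 3 was high. UBE2D4 had 0 counts in each library, which allows at most 0.116 CPM in the shallowest. UBE2D proteins are near-identical in sequence, and reads with several matching places (2.45% to 8.37% of a file) were listed apart and given to no gene, so how reads were split among the UBE2D genes is uncertain.

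**Figure D2:**
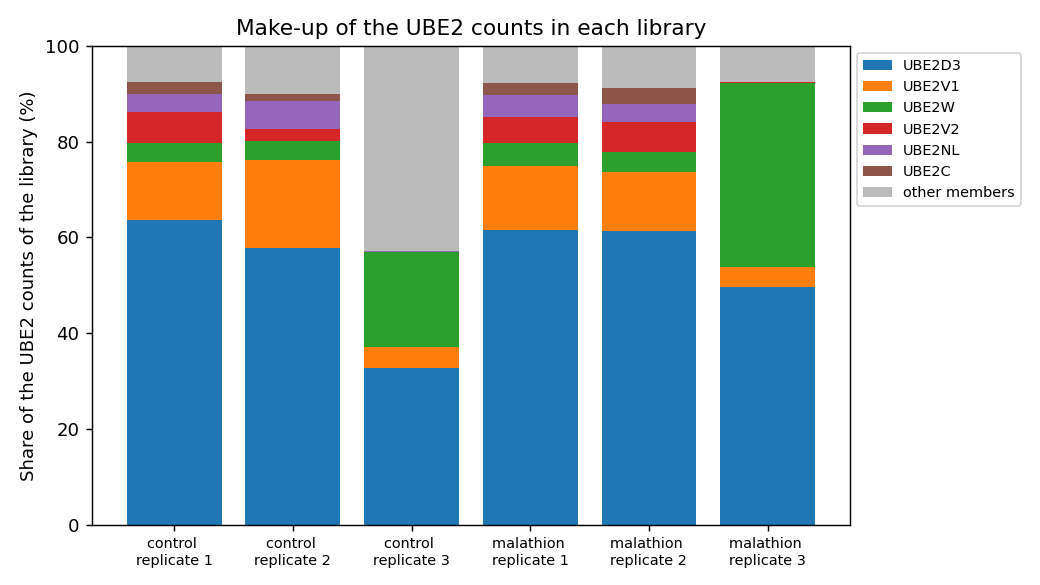
Share of the UBE2 counts (%, bars sum to 100) taken by the 6 members with the highest median CPM and by the other 23 together, in each library. UBE2D3 (blue) holds 57.8% to 63.7% in the replicate 1 and 2 libraries of both groups, UBE2W (green) is enlarged in both replicate 3 libraries, and the other members (grey) are enlarged in control replicate 3.

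UBE2V1 (ENSSSCG00000030632) and UBE2V2 (ENSSSCG00000022190) lack the active-site cysteine and act as partners of UBE2N, with which they build chains used in signalling and in the tolerance of DNA damage. UBE2V1 was second by reads in each replicate 1 and 2 library, at 1169, 2186 and 111 CPM in the control and 1151, 1266 and 138 CPM in the malathion libraries. UBE2V2 stood at 625, 278 and 3.70 CPM in the control and 458, 632 and 3.36 CPM in the malathion libraries. No identifier carried the symbol UBE2N, and UBE2NL (ENSSSCG00000000908), the name given to a UBE2N-like gene, stood at 371, 705 and 2.71 CPM in the control and 398, 381 and 1.94 CPM in the malathion libraries. The groups overlapped for these 3 genes, and their log2 fold changes were 0.07 ± 1.52 for UBE2V1, 0.34 ± 1.24 for UBE2V2 and −0.16 ± 1.22 for UBE2NL (SE). The sign of each turned when 1 library was left out, to −0.34 for UBE2V1 and 0.37 for UBE2NL without malathion replicate 3 and to −0.13 for UBE2V2 without control replicate 3, and UBE2V1 stood at −0.44 on library totals alone. Control replicate 2 differed from control replicate 1 in the balance of the partners, with more UBE2V1 and UBE2NL and less UBE2V2. In the replicate 3 libraries UBE2V2 and UBE2NL were below 0.01 of their mean in the other 4 libraries.

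UBE2W (ENSSSCG00000006177), which attaches ubiquitin to the amino end of its substrates, was not low in the replicate 3 libraries, where most of the family was. It stood at 402, 492 and 495 CPM in the control and 417, 417 and 1277 CPM in the malathion libraries, highest in malathion replicate 3. UBE2H (ENSSSCG00000016564), the E2 of the CTLH ligase complex, stood at 164, 182 and 270 CPM in the control and 112, 166 and 138 CPM in the malathion libraries. UBE2K (ENSSSCG00000033602), which can extend chains without a ligase, stood at 21.0, 21.99 and 7.94 CPM and at 20.9, 28.2 and 8.91 CPM. These 3 members had the smallest difference between highest and lowest library among the 23 tested members, at 1.67 (UBE2W), 1.27 (UBE2H) and 1.81 (UBE2K) on the log2 (CPM plus 0.1) scale. In TMM-normalised CPM, where UBE2V1 ran from 473 to 998, the 3 members were not steady. They ran from 138 to 9237 (UBE2W), 49.6 to 1916 (UBE2H) and 6.16 to 64.4 (UBE2K). Their groups overlapped, and the log2 fold changes were 1.32 ± 2.41, −0.87 ± 1.84 and 0.24 ± 1.13 (SE), with the sign of each turning when 1 library was left out. For UBE2W it was −2.87 without malathion replicate 3, and for UBE2H 2.63 without control replicate 3.

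In the replicate 1 and 2 libraries UBE2C drew the most reads of the cell-cycle members, while in both replicate 3 libraries UBE2R2 and UBE2D1 drew more. UBE2C (ENSSSCG00000007423) is the E2 with which the anaphase-promoting complex starts chains on cyclin B and securin. UBE2C stood at 239, 180 and 1.29 CPM in the control and at 215, 344 and 0.780 CPM in the malathion libraries. Its highest library was malathion replicate 2, its lowest were both replicate 3 libraries, with 38 and 33 counts, and the groups overlapped. The log2 fold change was 0.53 ± 1.196 (SE, 95% interval −2.03 to 3.08, edgeR), and −0.07 without malathion replicate 2.

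UBE2S (ENSSSCG00000035344) lengthens the chains that UBE2C begins. It was thinly covered, with 157, 66 and 1 counts in the control and 156, 66 and 0 counts in the malathion libraries, or 5.65, 2.43 and 0.0339 CPM and 6.04, 2.38 and 0 CPM. The 2 groups ran almost in step by replicate number, and the log2 fold change was 0.11 ± 1.57 (SE). UBE2D1, given above, had a log2 fold change of −0.25 ± 1.04 (SE), which turned to 0.31 with the replicate number as a block and to 1.17 without control replicate 3. UBE2R2 (ENSSSCG00000034725) and its near relative CDC34 serve the cullin-based SCF ligases, which act around cell-cycle entry. UBE2R2 stood at 34.4, 52.2 and 426 CPM in the control and 27.8, 40.2 and 7.28 CPM in the malathion libraries, so that control replicate 3 alone was high. CDC34 (ENSSSCG00000039640), which the UBE2 symbols do not cover, did not share that pattern, at 35.3, 79.3 and 0.170 CPM in the control and 31.996, 36.8 and 0.236 CPM in the malathion libraries.

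UBE2A (ENSSSCG00000012621) and UBE2B (ENSSSCG00000038953) are the mammalian forms of yeast RAD6, which ubiquitinates histone H2B with RNF20 and RNF40 and the sliding clamp of replication with RAD18. UBE2A stood at 61.9, 179 and 314 CPM in the control and 74.4, 102 and 12.4 CPM in the malathion libraries. UBE2B stood at 2.70, 38.5 and 0.102 CPM and at 2.09, 2.56 and 0.213 CPM, with control replicate 2 alone above 3 CPM. UBE2T (ENSSSCG00000010923), the E2 of the Fanconi anaemia pathway of DNA crosslink repair, stood at 48.5, 56.1 and 4.95 CPM in the control and 88.7, 86.4 and 6.81 CPM in the malathion libraries. It was higher after malathion in each of the 3 same-numbered pairs of libraries, but the groups overlapped through the replicate 3 libraries. Its log2 fold change was 0.76 ± 0.90 (SE, 95% interval −1.15 to 2.68, adjusted p = 0.9998, edgeR), and 0.99 ± 0.44 (adjusted p = 0.9909) with both replicate 3 libraries left out.

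The members tied to the endoplasmic reticulum were sparsely covered. UBE2J1 (ENSSSCG00000004317) is anchored in that membrane and takes part in the disposal of misfolded proteins. It had 16, 163 and 24 counts in the control and 5, 4 and 1 counts in the malathion libraries, or 0.576, 6.01 and 0.814 CPM against 0.194, 0.144 and 0.0236 CPM. Each control library was above each malathion library, and control replicate 2 was far above the other 2 controls. UBE2J2 (0 to 8.34 CPM), the other membrane-anchored member, and UBE2G2 (0 to 13.8 CPM), which takes part in the same disposal route, did not separate the groups. UBE2G2 lay between 12.2 and 13.8 CPM in the replicate 1 and 2 libraries, the narrowest range of the 23 tested members there, and had 0 and 1 counts in control and malathion replicate 3.

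UBE2E1 (ENSSSCG00000026488), a broad E2 related to UBE2D, stood at 139, 217 and 14.7 CPM in the control and 69.4, 152 and 14.0 CPM in the malathion libraries. Its log2 fold change was −0.25 ± 0.97 (SE), and 0.09 without malathion replicate 1. Its relative UBE2E3 ranged from 5.46 to 159 CPM, and UBE2E2 (ENSSSCG00000031392) stood at 1.19, 1.03 and 0 CPM in the control and 1.16, 3.17 and 0.0709 CPM in the malathion libraries. The log2 fold change of UBE2E2 was 1.32 ± 1.44 (SE), and malathion replicate 2 was its highest library. UBE2Q2 ranged from 19.1 to 167 CPM and UBE2Q1 from 0.204 to 69.2 CPM.

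The other 5 members stayed near the floor in all or nearly all libraries. UBE2M, the main E2 for NEDD8, reached at most 0.627 CPM, UBE2L6, the E2 for ISG15, at most 0.111 CPM, and UBE2QL1 at most 0.170 CPM. UBE2Z, which receives ubiquitin from UBA6, had 38 counts in control replicate 2 and 0 in each of the other 5 libraries. UBE2O, a large enzyme that joins E2 and E3 functions, had 2, 23 and 1 counts in the control and 0 in each malathion library. With UBE2D4, these are the 6 members that did not pass the filter on low counts, and the other 23 were tested. UBE2N, UBE2L3, UBE2F and UBE2U were matched to no identifier by symbol and were not analysed under these names. UBE2G1 was not analysed either. Whether UBE2NL, given above, is the pig UBE2N is not settled here.

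The order of the family by reads was alike in the replicate 1 and 2 libraries of both groups. Spearman's rho across the 29 members was 0.958 to 0.990 between any pair of those 4 libraries, 0.909 between control and malathion replicate 3, and 0.760 to 0.793 between a replicate 3 library and another. These values describe the libraries, which share the lengths of the genes, and members are not independent. The same 8 members had the highest median CPM with and without the replicate 3 libraries. Over the 4 replicate 1 and 2 libraries, 12 of the 23 tested members varied by no more than 2-fold from lowest to highest, from 1.13-fold for UBE2G2 to 1.91-fold for UBE2C. UBE2J1 (41.7-fold) and UBE2B (18.4-fold) varied the most there, both through control replicate 2. Compared with their mean in those 4 libraries, 11 of 23 members were below 0.1 of it in control replicate 3 and 14 of 23 in malathion replicate 3. The share over all tested genes was 77.5% in control replicate 3 and 77.6% in malathion replicate 3. Members above that mean were UBE2W, UBE2H, UBE2A and UBE2R2 in control replicate 3, and UBE2W and UBE2D2 in malathion replicate 3.

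The malathion libraries were compared with the control libraries gene by gene. None of the 23 tested UBE2 members reached an adjusted p under 0.05 in edgeR's quasi-likelihood test (the smallest was 0.9998), and of all 10678 genes tested 0 did (0%). By estimate alone 13 members were higher and 10 lower, with a median log2 fold change of 0.11 against −0.08 for all tested genes, 46.6% of which had a higher estimate. On library totals alone, without TMM factors, 9 members were higher and 14 lower (median −0.08), where the median of all tested genes was −0.33. Without malathion replicate 3, 8 were higher and 15 lower (median −0.54). TMM factors were 0.141 for control and 0.138 for malathion replicate 3 against 2.26 to 3.57 elsewhere, so a fold change cannot be worked out from the CPM given above. In TMM-normalised CPM, for example, UBE2W stood at 3518 in control replicate 3 and 9237 in malathion replicate 3 against 138 to 185 in the other 4 libraries.

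**Figure D3:**
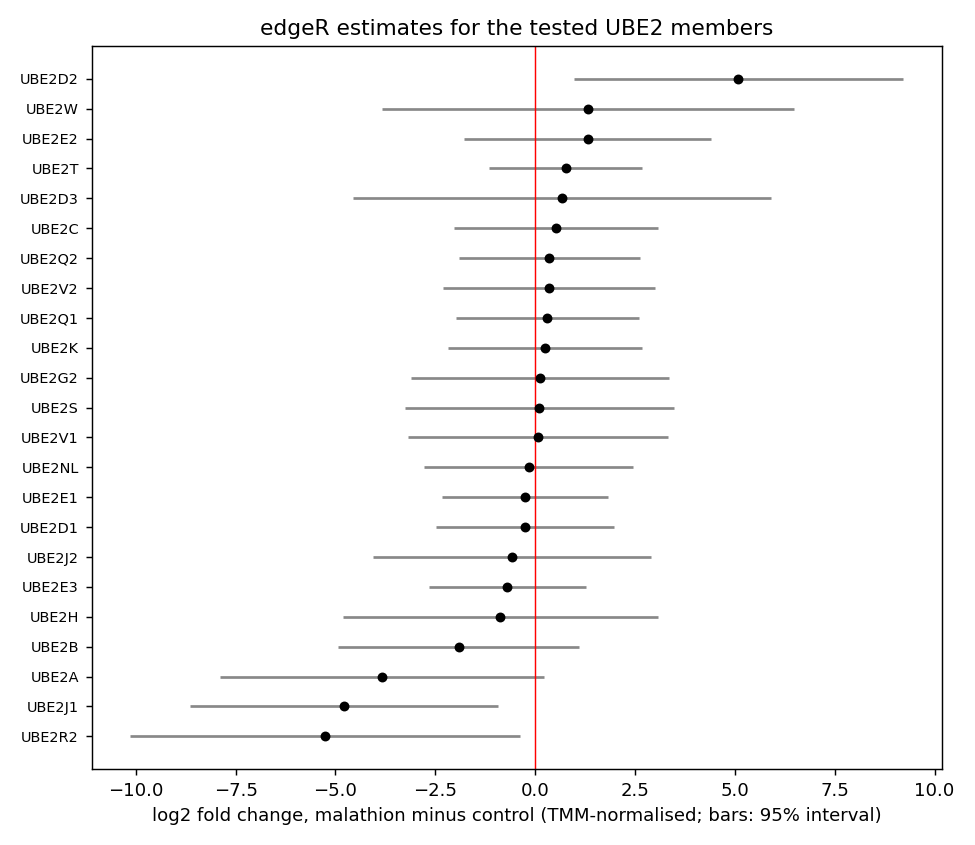
Log2 fold change, malathion minus control, of the 23 tested UBE2 members from edgeR on TMM-normalised counts (points), with 95% intervals (bars) and a red line at 0. The intervals of 20 members span 0, and those of UBE2D2, UBE2J1 and UBE2R2 do not, although none of the 3 passed after adjustment over all genes.

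An unadjusted p under 0.05 was found for 3 of the 23 tested members, UBE2D2, UBE2J1 and UBE2R2, against 3.59% of all tested genes. With the replicate number as a block only UBE2J1 had such a p, and the count over all genes went from 383 to 120. UBE2D2 had a log2 fold change of 5.09 ± 1.93 (SE, unadjusted p = 0.0191, adjusted p = 0.9998, edgeR). It rested on malathion replicate 3, with 1062 counts there and 17 to 63 in the other libraries, and stood at −1.68 without that library and at 1.00 with the block. UBE2R2 had −5.26 ± 2.28 (unadjusted p = 0.0366, adjusted p = 0.9998, edgeR), with 12547 counts in control replicate 3 and 308 to 1416 elsewhere. It stood at 0.88 without control replicate 3 and at −1.51 with the block. UBE2A had −3.84 ± 1.89 (unadjusted p = 0.0615, edgeR), and 0.50 without control replicate 3. Both libraries are the ones with few oocyte marker reads, and the part of that difference in these estimates was not tested.

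UBE2J1 kept a lower estimate after malathion in each alternative that tested it. Its log2 fold change was −4.78 ± 1.80 (SE, 95% interval −8.63 to −0.93, unadjusted p = 0.0185, adjusted p = 0.9998, edgeR), −3.76 with the replicate number as a block, −3.75 with both replicate 3 libraries left out, and −5.30 to −3.42 when 1 library was left out. It was the 1 tested member whose CPM did not overlap between the groups, and it was lower after malathion. Of all tested genes 0.506% were lower and 0.243% higher without overlap. UBE2J1 passed the filter on low counts only through the control libraries, where it was high. Its lack of overlap, its unadjusted p and its steady sign are therefore no support for a change. DESeq2 gave an adjusted p of 0.662. The malathion values rest on 1 to 5 counts a library, where counting error alone is large: at 10 counts the Wilson 95% half-width was already 64.9% of the value.

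**Figure D4:**
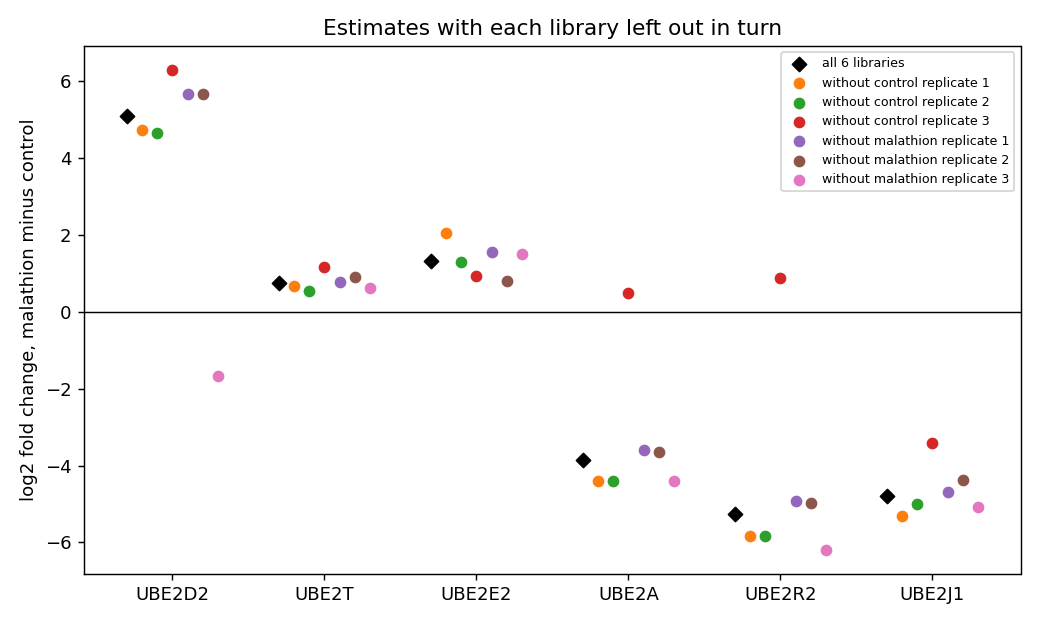
Log2 fold change, malathion minus control, of the 3 tested members with the smallest p in each direction, with all 6 libraries (black diamonds) and with each library left out in turn (coloured circles). UBE2D2 turns negative without malathion replicate 3, UBE2A and UBE2R2 turn positive without control replicate 3, and UBE2J1 stays between −5.30 and −3.42.

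Within same-numbered pairs of libraries, the 16 members with a mean of at least 10 CPM were compared by the log2 ratio of malathion over control, with 1 added to each CPM. The pairing by number was assumed, and neither labels nor counts show it for replicates 1 and 2. In replicates 1 all 16 lay within 2-fold (within ± 1 on this scale), with a median of −0.02 and an SD of 0.41, where 98.1% of the 5339 genes at that level did so. The lowest was UBE2E1 at −0.99 and the highest UBE2T at 0.86. In replicates 2, 13 of 16 members lay within 2-fold against 62.7% of all such genes, from −1.45 for UBE2E3 to 1.18 for UBE2V2. In replicates 3 it was again 13 of 16, against 69.8%, from −5.69 for UBE2R2 to 1.37 for UBE2W. UBE2T was the 1 member of 16 that was higher in 3 of 3 pairs, against 8.95% of all such genes. UBE2H, UBE2E1, UBE2E3 and UBE2R2 were lower in 3 of 3 pairs, or 4 of 16, against 16.9%, and the ratio was as small as −0.02 for UBE2E3 and −0.07 for UBE2E1 in 1 of their pairs.

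**Figure D5:**
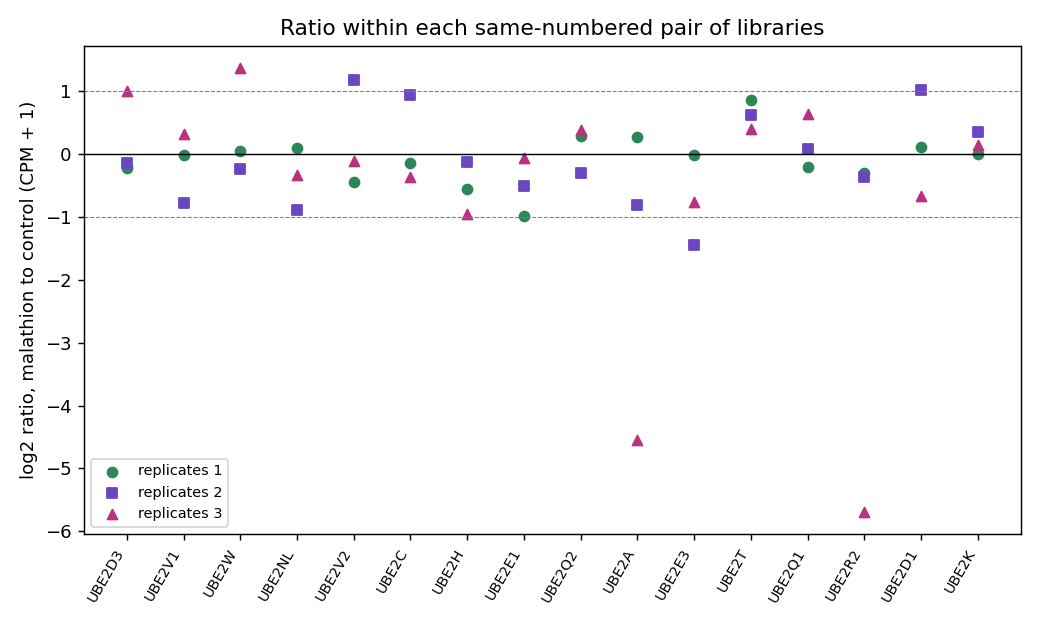
Log2 ratio of malathion over control, with 1 added to each CPM, within replicates 1 (green circles), 2 (purple squares) and 3 (pink triangles) for the 16 UBE2 members with a mean of at least 10 CPM, with dashed lines at a 2-fold difference. The circles stay within the dashed lines for each member, and the triangles of UBE2A and UBE2R2 fall far below them.

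The rest of the relay was given by 4 lists of genes. None of 8 tested E1 genes, 7 tested genes with an E2 fold outside the UBE2 symbols, 6 tested genes of ubiquitin and its relatives and 22 tested E3 partners passed the test in either direction (edgeR, adjusted p at least 0.9998). The estimates were higher for 5, 2, 4 and 12 of them, and the medians were 0.08, −0.37, 1.33 and 0.02. Of the E1 genes, SAE1, a subunit of the SUMO-activating enzyme, stood at 162, 127 and 0.950 CPM in the control and 117, 188 and 0.993 CPM in the malathion libraries. UBA3, the catalytic subunit for NEDD8, stood at 110, 75.0 and 5.06 CPM and at 155, 141 and 8.74 CPM. Both were low in the replicate 3 libraries of both groups, as UBE2C and UBE2V2 were.

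Of the modifiers, the ubiquitin gene UBB (ENSSSCG00000018033) stood at 4047, 3117 and 44.3 CPM in the control and 4276, 3541 and 6460 CPM in the malathion libraries. SUMO2 (ENSSSCG00000017212) stood at 1133, 627 and 43.2 CPM and at 1341, 1086 and 3397 CPM. Both were higher after malathion in 3 of 3 pairs, most of it in replicates 3, and their log2 fold changes of 4.11 ± 3.33 and 4.74 ± 2.995 (SE) did not pass. Without malathion replicate 3 they were 0.75 for UBB and 0.66 for SUMO2, and with both replicate 3 libraries left out 0.33 and 0.62. RPS27A, a gene for a ubiquitin fused to a ribosomal protein, had 0 counts in each library.

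Among the genes with an E2 fold, AKTIP, an E2-like protein without catalytic activity, stood at 891, 369 and 44.9 CPM in the control and 862, 773 and 21.1 CPM in the malathion libraries, and UEVLD ranged from 0.679 to 303 CPM. Among the E3 partners, RNF20, a partner of UBE2A and UBE2B, stood at 608, 1569 and 7.02 CPM and at 494, 584 and 9.52 CPM. RNF7, a cullin subunit that works with the NEDD8 enzymes, stood at 361, 378 and 48.2 CPM and at 422, 383 and 56.2 CPM. An unadjusted p under 0.05 was found for 1 of the 43 tested genes of these 4 lists (2.33%), against 3.59% of all tested genes. This was TRAF6, a ligase that works with UBE2N and UBE2V1, named after its values were seen. It stood at 22.3, 17.0 and 16.9 CPM in the control and 18.8, 20.6 and 0.685 CPM in the malathion libraries (log2 fold change −2.67 ± 1.22, SE, unadjusted p = 0.0453, adjusted p = 0.9998, edgeR), and malathion replicate 3 alone was low. In TMM-normalised CPM, the scale of the test, control replicate 3 alone was high, at 120 against 4.76 to 9.33 elsewhere. The TRAF6 estimate rested on that library, at −0.0016 without control replicate 3 and −2.44 without malathion replicate 3. It was 0.19 with both replicate 3 libraries left out.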

How the data were processed

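The deposited files hold raw read counts, 1 library to a file. STAR 2.5.3a, HTSeq 0.9.1 and DESeq2 1.20.0 are named per the submitters' processing notes. What each did, the genome build, the annotation and whether strand was used are not given in the sources used here, so no coordinates are printed. Per the labels' protocols, polyadenylated RNA was amplified by a modified Smart-seq2 method, which does not mark strand, so reads of overlapping or antisense genes may be mixed. The 5 summary rows of each file (36.7% to 42.6% of reads) were kept out of totals and tests. A name table gave symbols to 14857 of 25880 identifiers and listed 30 UBE2 genes, 29 of them in the files.

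Counts were tested with edgeR 4.0.16 (R 4.3.3), by the two-sided quasi-likelihood F test with TMM factors, after filterByExpr at a minimum count of 10 and a minimum total of 15, with Benjamini-Hochberg adjustment over 10678 genes. DESeq2 1.42.0 and limma 3.58.1 (voom) were alternatives. Standard errors come from the F statistic. The procedure was tested on simulated data, where recovery of changed genes was required only at a spread far below that of these libraries. The chi-square per degree of freedom was at least 56.9 for each pair of libraries, so none was a duplicate. The numbers were taken to pair libraries, although no label says what a number marks. Across genes, the deviations of libraries with the same number from their own group's mean had r = 0.546, 0.480 and 0.596 for replicates 1, 2 and 3. Unlike numbers gave 0.508 for control 1 with malathion 2 and 0.417 for control 2 with malathion 1. The values thus set replicates 3 apart but do not show that replicates 1 and 2 pair by number.

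Members, lists and named genes were chosen with earlier results of these data known. The rule gave values in every library for the 8 members with the highest median CPM, UBE2C, UBE2S, UBE2D1 and UBE2R2, the 3 tested members with the smallest p in each direction, the 3 with the smallest range of log2 (CPM plus 0.1), and, of each pathway list, the 2 genes with the highest median CPM, besides CDC34. UBE2B and others outside the rule are given for their role.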

Additional observations from a re-analysis of the deposited data

How the results depend on the processing

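No UBE2 member passed the adjusted test under any alternative with a filter on low counts (DESeq2's size factors, library totals, a filter of 50 counts in 3 libraries, DESeq2, limma-voom, the replicate block, each library left out, both replicate 3 libraries left out). DESeq2 gave no p for 1119 genes, among them UBE2A, UBE2D2, UBE2H, UBE2R2 and UBE2W, so it did not test these members. Without a filter, 60 of 16852 genes passed, and 1 of 28 members. This member was UBE2D2 (5.10, adjusted p = 0.0429, edgeR), which rests on malathion replicate 3. Leaving out 1 library gave 0 to 3 genes over all (3 where malathion replicate 1 or 2 was the one left out) and 0 members. Unadjusted p under 0.05 over all genes were 383, against 120 with the replicate block, 227 with DESeq2, 110 with limma-voom, 110 on library totals and 989 without a filter. Without both replicate 3 libraries such a p was found for 2 of 23 tested members, UBE2J1 and UBE2B, and for 253 of 11637 genes. UBE2B was high in control replicate 2 alone, with 1044 counts. It had 75 counts in control replicate 1, and 54 and 71 in malathion replicates 1 and 2. The replicate block gave a median of 0.20 for the members and called no gene.

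The median log2 fold change of the members ran from −0.54 to 0.27 when 1 library was left out. The difference in summed CPM ran from −3472 to 1329, and was 2111 in TMM-normalised CPM and −1447 with both replicate 3 libraries left out, an alternative chosen after seeing the data. Signs turned for UBE2D1 on library totals (0.39), with limma-voom (0.47), with the block (0.31) and without both replicate 3 libraries (0.64), for UBE2S with limma-voom (−0.86) and the block (−0.10), for UBE2V1 on library totals (−0.44) and without both replicate 3 libraries (−0.16), for UBE2D3 on library totals (−0.079), and for UBE2D2 without both replicate 3 libraries (−0.49). The causes were not tested. When 1 library was left out, the estimates ran from −4.41 to 0.50 (UBE2A), −0.070 to 1.38 (UBE2C), −0.75 to 1.17 (UBE2D1), −1.68 to 6.30 (UBE2D2), −0.54 to 1.29 (UBE2D3), −0.75 to 0.093 (UBE2E1), −3.57 to 2.63 (UBE2H), −1.23 to 1.91 (UBE2K), −0.66 to 0.37 (UBE2NL), −6.19 to 0.88 (UBE2R2), −1.22 to 1.33 (UBE2S), −0.34 to 0.27 (UBE2V1), −0.13 to 1.59 (UBE2V2) and −2.87 to 4.38 (UBE2W). UBE2E2, UBE2J1 and UBE2T kept their sign throughout. A rank of members per transcript length was not run, because no transcript lengths were used here.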
